A study of Mus musculus with 12 samples.

Results

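Bone marrow cells of mice carrying STAT3C were compared with those of control mice, with both genotypes given short-chain fatty acids (SCFA). The comparison used 6 of the 12 libraries of the study, chosen by their genotype and treatment labels: 3 labelled homozygous, of genotype STAT3Cstopfl/fl CD4Cre, and 3 labelled control, whose alleles the labels do not give. Mice of both groups drank water with SCFA up to an age of about 8 weeks, and the labels do not name the fatty acids. The marrow was kept in alpha-MEM for about 24 hours, and RNA of the cells that had not attached was sequenced from low-input poly(A) libraries. The other 6 libraries came from untreated mice of the same genotypes and carry another label date, so treatment and date cannot be told apart. The labels do not tie a group's 3 libraries to different mice, so the p-values measure only the spread between libraries.

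STAT3 is a transcription factor that receptors of the IL-6 family and of several growth factors activate through JAK kinases. STAT3C is an engineered form that is active without such a signal. Here it lies in the Rosa26 locus behind a stop cassette that Cre removes, and CD4Cre acts mainly in T cells. SCFA are products of gut bacteria that act on cells through receptors such as FFAR2 and HCAR2 and by inhibiting histone deacetylases. Marrow holds the precursors of B cells, red cells, platelets, granulocytes, monocytes and osteoclasts, and in bulk RNA fewer cells of a type and less RNA per cell cannot be told apart.

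The labels call the cells progenitors. Kit, the stem cell factor receptor, measured 44.5, 59.1 and 50.7 CPM (counts scaled to a common library size) in the control libraries and 70.8, 62.2 and 64.9 CPM in the homozygous ones. Cd34 measured 47.3 to 54.4 CPM over the 6 libraries, and the most abundant gene in each was the neutrophil gene S100a8, a product of cells past the progenitor stage. The 6 libraries held 17531550 to 20748995 counts. A principal component analysis of them placed 49.7% of the variance on a first component that separated the genotypes. Homozygous library 1 stood apart from homozygous libraries 2 and 3 on the second component, at -62.4 against 24.3 and 35.6 (15.5% of the variance).

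A gene was called when its adjusted p (edgeR quasi-likelihood F test, Benjamini-Hochberg over 15674 genes) was under 0.05. Of these genes, 1394 (8.89%) rose and 1328 (8.47%) fell in the homozygous libraries, and 4916 had an unadjusted p under 0.05. Falls were larger than rises. The median log2 fold change of the genes that fell was -1.20 and that of the genes that rose was 0.75, beside -0.02 over all genes tested. At least 2-fold falls numbered 743 (4.74%) and at least 2-fold rises 256 (1.63%), while 287 genes fell and 29 rose at least 8-fold. The 3 libraries of a genotype lay wholly above the other 3 in 19.8% of genes for homozygous and in 19.8% for control. Of the 743, 136 belonged to the B lineage lists described below, which include immunoglobulin genes. By annotation 116 of the 743 were immunoglobulin genes or segments, so the 2 counts overlap. Falls of at least 2-fold were seen in 44 of 74 heavy chain variable segments, 50 of 84 kappa variable segments and 6 of 11 constant regions tested, beside 4.74% of all genes. The number of calls depended on single libraries. Without control library 3, 656 genes rose and 775 fell; without homozygous library 2, 722 and 790; without homozygous library 3, 795 and 790; and without control library 2, 875 and 863. The 256 rises of at least 2-fold became 158 without control library 3, 165 without homozygous library 2 and 401 without homozygous library 1.

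The direction of the calls followed the base composition of the transcripts. Genes were cut into 5 equal bins by GC content. In the bin with the lowest, 28.3% to 43.1%, 1.01% rose and 10.7% fell. In the bin with the highest, 54.5% to 78.3%, 24.7% rose and 3.87% fell. The gradient lay in the libraries: the median log2 deviation of high-GC minus low-GC genes was -0.33, -0.47 and -0.78 in the control libraries and -0.17, 0.49 and 0.31 in the homozygous ones, 2 ranges that do not overlap. In the untreated libraries the deviation was 0.04, 1.16 and 0.61 in control and -0.25, -0.56 and -0.07 in homozygous libraries. The gradient between genotypes thus ran the other way there. Its part in the results was not tested, so list counts and many gene values are given also from a second fit with a correction for GC content, an alternative chosen after seeing the data. With it, 1075 genes rose (6.86%) and 1326 fell (8.46%), 121 of the rises (0.772% of genes) and 728 of the falls (4.64%) were at least 2-fold, and the share of genes that rose lay between 5.75% and 8.42% in every bin. Of the rises, 743 (53.3%) remained, of the falls 1042 (78.5%), and none changed direction. Below, "corrected" marks a value from this fit.

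**Figure D1:**
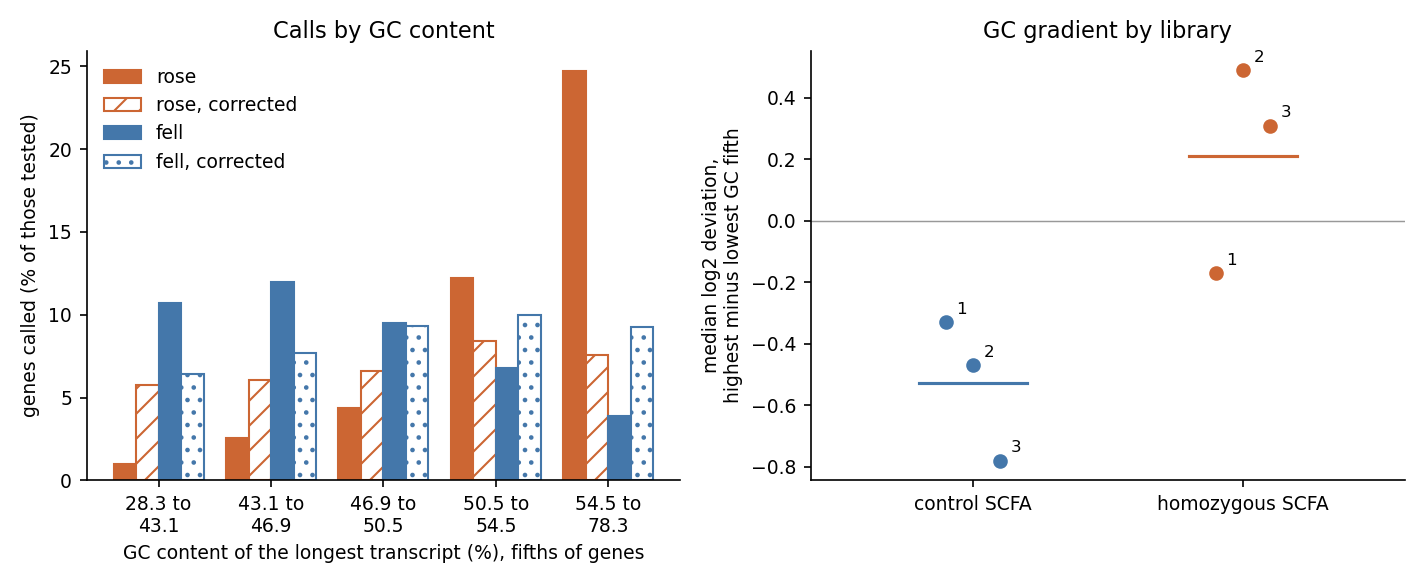
Calls by GC content. Left, bars give the percent of tested genes that rose or fell in each of 5 bins of genes by GC content of the longest transcript, before and after the correction; uncorrected rises climb from 1.01% to 24.7%. Right, points are the 3 control and 3 homozygous libraries, numbered by replicate, and lines are group means of the median log2 deviation of the highest-GC minus the lowest-GC bin; all 3 control libraries lie below all 3 homozygous libraries.

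B cell development starts from transcription factors that open the B lineage program, passes through the pro-B and pre-B stages, where the RAG recombinase assembles immunoglobulin genes, and ends with mature B cells that display immunoglobulin. Genes of every one of these steps were lower in the homozygous libraries. All 12 B lineage transcription factors tested fell, with a median log2 fold change of -2.56 (12 fell, median -2.44, corrected). Ebf1, a pioneer factor of the lineage (chr11:44617317-45008091 of mm10, plus strand), measured 170, 163 and 184 CPM in the control libraries and 8.48, 8.03 and 8.61 CPM in the homozygous ones. No homozygous library came near a control library, and the difference was -4.36 ± 0.13 on the log2 scale (SE, n = 3 and 3; adjusted p = 5.5e-11; -4.13 corrected). Bach2, a repressor that holds back plasma cell fate, measured 93.3 to 108 CPM against 4.22 to 6.95 CPM. Pou2af1, a coactivator of octamer factors, and Spib, an ETS factor shared with plasmacytoid dendritic cells, fell by 4.08 and 3.97 on the log2 scale (-4.04 and -4.33 corrected). Pax5, which fixes B cell identity, measured 59.7, 54.8 and 75.5 CPM against 4.40, 3.02 and 2.17 CPM. The fall was smaller for Ikzf1, a factor of all lymphoid cells, which measured 297, 324 and 348 CPM against 220, 206 and 226 CPM, a log2 fold change of -0.57.

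The pro-B and pre-B list fell furthest, with 8 of 9 genes and a median of -5.18 (8 fell, median -5.46, corrected). Its summed level was 404.4 to 502.6 CPM in the control libraries and 28.68 to 35.11 CPM in the homozygous ones. Rag1 and Rag2, the 2 subunits of the recombinase, had 3380 and 2385 counts over the control libraries and 0 counts in all 3 homozygous libraries. A count of 0 allows up to 0.0538 CPM over the homozygous group (a floor of 3 counts), so Rag1 was at least 1078-fold lower and Rag2 at least 760.4-fold lower; floors and intervals cover counting error only. Igll1 is the lambda-like part of the surrogate light chain. It measured 23.6, 22.7 and 18.7 CPM against 0.161, 0 and 0 CPM. Vpreb3, a chaperone of the pre-B receptor, measured 100, 108 and 100 CPM against 1.61, 2.91 and 3.99 CPM. Dntt, the enzyme that adds bases at V(D)J joints, was reduced less, from 27.3, 29.3 and 43.2 CPM to 5.37, 2.71 and 3.82 CPM. Il7r, a receptor chain that early B and T cell precursors need, kept 24.1, 21.8 and 26.4 CPM against 175, 137 and 214 CPM. Arpp21, a gene of lymphoid precursors, was the member that did not pass, at 0.237 to 2.85 CPM in control and 0.228 to 2.42 CPM in homozygous libraries.

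**Figure D2:**
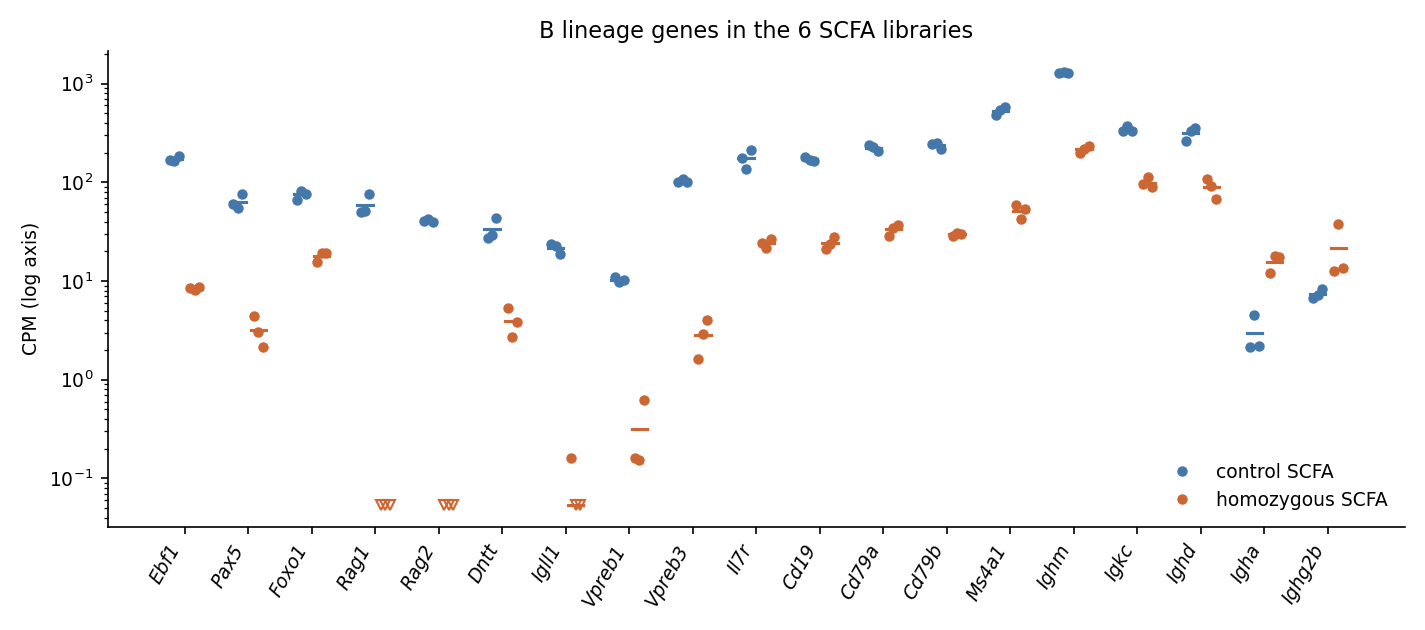
B lineage genes in the 6 libraries under SCFA. Points are CPM of single libraries on a log axis, lines are group means, and open triangles are libraries with 0 counts, drawn at the group floor of 0.0538 CPM; homozygous libraries lie below control libraries for every gene shown except Igha and Ighg2b, where they lie above.

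Among 15 genes of the B cell receptor complex and its signalling, 10 fell and none rose (median -1.23; 11 fell, median -0.97, corrected). Cd79a and Cd79b, the signalling chains of the receptor, measured 208 to 239 and 216 to 250 CPM in control libraries and 28.5 to 37.3 and 28.5 to 30.6 CPM in homozygous ones. Cd72, an inhibitory coreceptor, measured 151, 171 and 148 CPM against 9.77, 8.54 and 8.27 CPM. Blnk, the adaptor below the receptor, measured 200, 253 and 228 CPM against 16.9, 20.6 and 15.7 CPM. The kinase Lyn did not pass, with 351, 358 and 367 CPM against 340, 328 and 335 CPM, and the kinase Syk had a log2 fold change of 0.01 (-0.31, called, corrected). Of 12 genes of the mature B cell surface 8 fell (median -1.0; 10 fell, median -1.02, corrected). Ms4a1, which encodes CD20, measured 482, 533 and 581 CPM against 58.7, 42.3 and 53.1 CPM. Tnfrsf13c, the BAFF receptor, measured 62.4, 66.3 and 72.0 CPM against 8.00, 8.08 and 8.04 CPM.

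Immunoglobulin genes did not all change in the same direction. Ighm, the constant region of IgM, fell from 1277, 1297 and 1280 CPM to 196, 217 and 233 CPM (log2 fold change -2.58, SE 0.11; adjusted p = 1.5e-09). Light chains fell too: Iglc1 measured 118, 129 and 121 CPM against 7.41, 4.19 and 6.61 CPM, and Igkc 330, 376 and 330 CPM against 95.5, 113 and 89.8 CPM. Igha, the constant region of IgA, rose instead, from 2.14, 4.51 and 2.19 CPM to 11.9, 17.9 and 17.4 CPM (log2 fold change 2.41 ± 0.32, SE; adjusted p = 0.00016; 2.24 corrected). Ighg2b of IgG2b measured 6.75, 7.21 and 8.30 CPM against 12.6, 38.1 and 13.4 CPM, and its call rested on single libraries: without homozygous library 2 its log2 fold change was 0.83, and the call was lost without control library 1, 2 or 3 (adjusted p = 0.085, 0.090 and 0.080). Of 11 constant regions, 2 rose and 6 fell with or without the correction. Of the variable segments, 44 of 74 tested heavy chain and 50 of 84 tested kappa segments fell and none rose (46 and 49 fell, none rose, corrected), and the other 30 and 34 were not called. Heavy chain variable segments summed to 215.3 to 220.0 CPM in control and 38.86 to 50.71 CPM in homozygous libraries.

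Plasma cell genes had no common direction: 3 of 8 fell and none rose, with or without the correction. The median was -0.86 (-1.17 corrected), with 4 log2 fold changes above 0 and 4 below. Irf4, a regulator of plasma cell fate that B and dendritic cells also use, measured 44.1, 51.6 and 55.5 CPM against 4.94, 5.21 and 5.87 CPM. Sdc1, which encodes CD138 and is also present on pre-B cells, measured 18.03, 14.7 and 13.6 CPM against 3.27, 5.06 and 5.30 CPM. Jchain, which joins IgA and IgM into polymers, measured 17.6, 11.3 and 9.55 CPM against 23.6, 27.4 and 11.2 CPM and did not pass.

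In all, 12 genes that averaged 5 CPM or more in the control libraries had 0 counts in every homozygous library, and 0 genes did in the opposite direction. The rule for the largest falls named 10 of them. Beside Rag1 and Rag2 they were Gfra1, a GDNF coreceptor, with 21.9, 24.0 and 26.9 CPM in control libraries; Col5a3, a collagen chain, with 25.4, 24.1 and 22.7 CPM; Tnfrsf19 and Lgr5, receptors of the TNF and R-spondin systems, with 15.9 to 18.3 and 15.6 to 18.1 CPM; Sertad4; Rgs13; Gpr12; and Egfl6. By the floor of 3 counts, Gfra1 was at least 448-fold and Lgr5 at least 303.8-fold lower. Without SCFA, 6 of these 8 were detected in every homozygous library; Lgr5 measured 3.47, 5.09 and 3.96 CPM there against 12.4, 6.28 and 16.3 CPM in untreated control libraries. The exceptions were Rgs13, at 0.868, 0 and 0 CPM, and Egfl6, at 0, 0.668 and 1.65 CPM. The 12 largest rises were smaller, and 9 of them are described with their lists below. The others were Colec12, a scavenger receptor, with 2.85, 0.294 and 0 CPM against 11.3, 15.2 and 17.04 CPM (log2 fold change 3.74 ± 0.83, SE; 6.47 without control library 1), Ces2g, a carboxylesterase, with 0.428, 0.687 and 1.78 CPM against 6.07, 7.004 and 6.954 CPM, and Galnt9, a glycosyltransferase, with 1.38, 2.70 and 1.84 CPM against 9.39, 10.02 and 8.49 CPM. Among further falls, Akap12, a scaffold protein, and Cecr2, a chromatin factor, measured 155, 176 and 188 CPM against 1.40, 2.15 and 1.37 CPM, and 145, 159 and 172 CPM against 1.82, 1.84 and 1.54 CPM.

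The fall of the B lineage transcription factors and of the pro-B and pre-B genes was deeper under SCFA than without it. Without SCFA, where 8.13% of all genes fell and 6.69% rose, 9 of the 12 transcription factors fell with a median of -1.29 (11 fell, median -1.26, corrected, beside 4.89% of all genes that fell and 4.96% that rose), and 4 of the 9 pro-B and pre-B genes fell with a median of -0.92 (5 fell, median -0.90, corrected). The difference between the 2 genotype differences (interaction) passed at adjusted p under 0.05 in 3938 genes (25.1%), or in 1553 (9.91%) corrected; the 3938 became 2455 without homozygous SCFA library 2, 2478 without control SCFA library 3 and 2579 without homozygous untreated library 2. In the B lineage the interaction was lower under SCFA (11.6% of all genes, or 5.68% corrected) for 10 of 12 transcription factors and 8 of 9 pro-B and pre-B genes, and for 7 and 8 corrected. Ebf1 fell by 4.36 with SCFA and by 1.35 without on the log2 scale (interaction adjusted p = 1.8e-07; 5.8e-07 corrected).

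Plasmacytoid dendritic cells, the main producers of type I interferon, share factors such as Tcf4 and Spib with B cells. Of 11 of their markers 8 fell and none rose (median -2.61; 9 fell, median -2.60, corrected), and their summed level was 730.9 to 765.9 CPM in control against 134.2 to 180.9 CPM in homozygous libraries. Siglech, a receptor restricted to these cells and to microglia, measured 111, 123 and 138 CPM against 19.6, 24.4 and 16.7 CPM. Ccr9, a gut homing receptor, measured 69.0, 93.3 and 96.2 CPM against 12.2, 12.1 and 8.55 CPM. Ly6d, also a mark of B-biased lymphoid progenitors, measured 204, 196 and 180 CPM against 17.6, 29.2 and 25.1 CPM. Bst2, an interferon-induced member, did not pass, at 19.7 to 22.6 CPM against 17.4 to 25.5 CPM. Without SCFA 3 of the 11 fell (5 corrected), and the interaction for Siglech passed (adjusted p = 0.00012 with and without the correction). Of 9 conventional dendritic cell markers 1 rose and 2 fell (1 and 3 corrected), or 1 fell without control library 2 or homozygous library 2 or 3; Cd209a fell from 96.7, 99.8 and 119 CPM to 50.4, 53.2 and 48.5 CPM.

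T cell genes, of interest because CD4Cre acts in T cells, were at low levels. Trac, the T cell receptor alpha constant region, measured 2.95, 2.70 and 2.02 CPM against 6.17, 4.601 and 4.05 CPM, and Cd3e and Cd3d measured 1.18 to 4.15 CPM in control and 1.88 to 5.78 CPM in homozygous libraries; none of the 3 passed. Of 20 T cell markers tested, 1 rose and 4 fell (0 and 4 corrected), and the median was 0.26 (0.14 corrected). No marker was at 0 in either group. The list summed to 164.0 to 190.1 CPM in control and 113.2 to 117.8 CPM in homozygous libraries. Its members did not share this lower sum: 14 of the 20 had log2 fold changes above 0 and 6 below. Those that fell are not restricted to T cells. Il2ra, the IL-2 receptor alpha chain that pre-B cells also carry, measured 37.4, 38.1 and 40.3 CPM against 0.376, 0.920 and 1.08 CPM. Cd2, also on B lineage and dendritic cells, measured 32.7, 35.0 and 27.9 CPM against 3.92, 5.93 and 5.02 CPM. Cd8a, also on dendritic cells, measured 14.3, 14.8 and 10.6 CPM against 3.01, 4.81 and 4.62 CPM. Cd4 measured 3.66, 7.11 and 7.53 CPM against 0.537, 0.971 and 3.08 CPM, and its call was lost without control library 2 or 3 or without homozygous library 2 (adjusted p = 0.0574, 0.0684 and 0.0836). Of 10 NK and cytotoxic cell markers 3 rose and 1 fell (2 and 1 corrected), and 4 rose without SCFA (2 corrected); without homozygous library 1, 2 fell. Gzmb, granzyme B, rose from 0.761, 0.834 and 0.890 CPM to 6.98, 7.77 and 6.95 CPM (log2 fold change 3.12, SE 0.46), and Klrd1, an NK receptor chain, fell from 34.2 to 44.0 CPM to 18.1 to 20.4 CPM.

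Late erythroid cells fill with hemoglobin, and all 6 globin genes tested fell, with a median of -2.14 (6 fell, median -2.63, corrected). Hbb-bs, an adult beta globin, measured 6487, 6391 and 7846 CPM against 1071, 1192 and 1047 CPM. Hba-a1, an alpha globin whose near-identical copy Hba-a2 can share its reads, measured 1923, 1518 and 1700 CPM against 313, 497 and 396 CPM. Alas2, the erythroid enzyme that starts heme synthesis, measured 826, 793 and 782 CPM against 167, 215 and 186 CPM. Its list of heme synthesis and iron uptake genes had no common direction: 2 of 13 rose and 3 fell (median 0.03; 1 and 4, median -0.04, corrected), and 1 rose without control or homozygous library 2 or 3. Of 18 red cell membrane genes 6 fell, among them Tmod1, a capping protein of actin, with 15.5 to 16.1 CPM against 3.19 to 5.21 CPM. In the same list Aqp1, the water channel, rose from 2.52, 2.11 and 1.90 CPM to 5.69, 9.51 and 8.44 CPM, and Rhag, the Rh complex glycoprotein, from 9.32, 9.51 and 11.98 CPM to 17.9, 19.4 and 17.7 CPM; 2 rose and 6 fell with or without the correction.

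Early erythroid genes rose or did not pass. Car1, carbonic anhydrase 1, which rises before hemoglobin, measured 0.0476, 1.37 and 0 CPM in control libraries and 59.5, 46.7 and 45.5 CPM in homozygous ones (log2 fold change 6.67 ± 0.81, SE; adjusted p = 6.6e-05; 10.60 without control library 2, which held most of the control counts). Gata1 and Klf1, the factors that drive the lineage, measured 21.3 to 22.4 and 3.80 to 5.38 CPM against 29.7 to 36.9 and 8.86 to 11.5 CPM, and both calls were lost with the correction (adjusted p = 0.309 and 0.0514). Of 9 genes in the list of erythroid factors and progenitor genes 5 rose, or 3 corrected. Hbb-bs differed from the untreated comparison, with a log2 fold change of -0.81 without SCFA (interaction adjusted p = 0.00023; 0.00013 corrected).

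**Figure D3:**
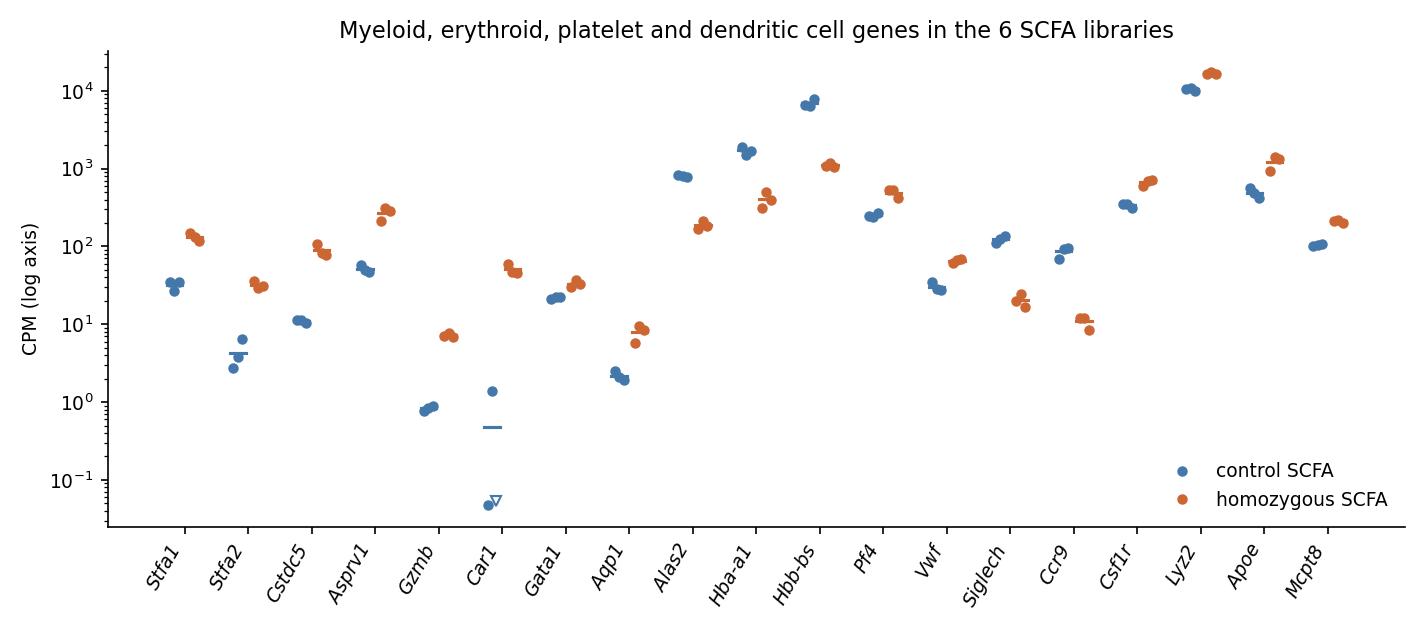
Genes of other lineages in the 6 libraries under SCFA. Points are CPM of single libraries on a log axis, lines are group means, and the open triangle is a library with 0 counts; homozygous libraries lie above control libraries for the stefins, Car1, Aqp1, Pf4 and the monocyte and basophil genes, and below them for globins, Alas2, Siglech and Ccr9.

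Platelet genes were higher as a group: 9 of 16 megakaryocyte and platelet genes rose and none fell (median 0.66; 7 rose, median 0.42, corrected). Pf4, platelet factor 4, measured 248, 236 and 273 CPM against 527, 529 and 413 CPM. Vwf, von Willebrand factor, measured 34.8, 28.6 and 27.5 CPM against 61.3, 66.9 and 69.0 CPM. Itga2b, the alpha chain of the fibrinogen receptor, had a log2 fold change of 1.14 (0.62 corrected), and its beta chain Itgb3 0.58 (0.40 corrected). Gp5 lost its call with the correction (adjusted p = 0.13). Without SCFA 1 of the 16 rose and 4 fell (0 and 2 corrected).

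Stefins are cysteine protease inhibitors of neutrophils that lie in a cluster of close copies on chromosome 16, so reads may be shared among them. Of 10 stefin genes 8 rose and none fell, corrected or not (median 1.78; 1.98 corrected), but 5 rose without control library 2. Stfa1 measured 35.2, 26.6 and 35.2 CPM against 147, 133 and 118 CPM, and Stfa2 2.71, 3.83 and 6.41 CPM against 35.8, 28.9 and 30.9 CPM. Csta2 measured 1.67, 1.72 and 0.949 CPM against 15.5, 16.7 and 12.4 CPM. Cstdc5 measured 11.2, 11.4 and 10.4 CPM against 107, 82.8 and 78.3 CPM; it and Csta2 have no transcript in the annotation used and hence no correction of their own. Without SCFA 8 of the 10 rose as well (median 2.19), and no stefin passed the interaction. Asprv1, an aspartic protease found in neutrophils, measured 57.5, 50.4 and 47.0 CPM in control and 210, 309 and 285 CPM in homozygous libraries under SCFA. Its log2 fold change between genotypes was 2.38 under SCFA and 0.22 without (interaction adjusted p = 7.7e-05, or 1e-05 corrected). Treatment and label date cannot be told apart in this difference.

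Primary granule genes belong to promyelocytes, and secondary and tertiary granule genes to later neutrophil precursors. Of 8 primary granule genes 4 rose (median 0.52; 4 rose, median 0.12, corrected), and 2 rose without control library 3 or without homozygous library 3. Elane, neutrophil elastase, measured 446, 394 and 360 CPM against 524, 767 and 705 CPM, a log2 fold change of 0.73 that became 0.23 with the correction. Of 15 secondary and tertiary granule genes 10 rose and none fell (median 0.58; 11 rose, median 0.33, corrected), or 6 without control library 3 or homozygous library 3. Hp, haptoglobin, measured 732, 652 and 563 CPM against 1119, 1576 and 1492 CPM (log2 fold change 1.10; 0.67 corrected). Camp, cathelicidin, measured 441, 403 and 381 CPM against 633, 909 and 743 CPM (0.90; 0.57 corrected). The most abundant neutrophil genes did not pass: S100a8 measured 35000, 34690 and 37790 CPM against 42880, 36400 and 33760 CPM. Among 13 mature neutrophil genes 2 rose and 1 fell (4 and 1 corrected); Il1b, interleukin-1 beta, rose from 320, 336 and 353 CPM to 460, 503 and 478 CPM, and Il1r2, its decoy receptor, fell from 369, 435 and 418 CPM to 266, 272 and 260 CPM.

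Part of the monocyte and macrophage markers rose. Of 19 monocyte markers 7 rose and none fell (median 0.33; 11 rose, median 0.51, corrected), or 4 without control library 3. Lyz2, lysozyme, measured 10430, 10980 and 10030 CPM against 16660, 17250 and 16410 CPM (log2 fold change 0.68 ± 0.08, SE; adjusted p = 2.9e-05; 0.73 corrected). Csf1r, the M-CSF receptor that monocytes and osteoclast precursors need, measured 354, 355 and 315 CPM against 592, 698 and 709 CPM (0.96; 0.63 corrected). Of 17 macrophage genes 8 rose, and 7 had log2 fold changes below 0 (6 rose and 1 fell, corrected), or 5 without homozygous library 2. Apoe, apolipoprotein E, measured 556, 482 and 424 CPM against 935, 1425 and 1338 CPM. The direction of its genotype difference was not the same in the comparisons with and without SCFA, whose label dates also differ. The log2 fold change was 1.34 under SCFA and -1.18 without (0.77 and -0.62 corrected, interaction adjusted p = 3.2e-05 and 4.9e-07 corrected). The complement chains C1qb and C1qc rose by 0.82 and 0.65 on the log2 scale, and C1qc lost its call with the correction (adjusted p = 0.516), and C1qb when length was corrected too (adjusted p = 0.0842).

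Of 16 eosinophil, basophil and mast cell markers 5 rose and 2 fell (6 and 1 corrected), and 1 fell without any 1 of the 6 libraries. Mcpt8, a basophil protease, measured 100, 105 and 108 CPM against 211, 219 and 202 CPM; Fcer1a, the IgE receptor alpha chain, 32.4, 23.2 and 38.2 CPM against 83.7, 71.1 and 71.8 CPM; and Hdc, which makes histamine, 205, 203 and 159 CPM against 294, 350 and 378 CPM. All 3 calls held with the correction. The eosinophil genes Prg2 and Epx measured 613 to 659 and 78.1 to 84.0 CPM against 664 to 854 and 72.8 to 107 CPM and did not pass. The members that fell were Il5ra, the IL-5 receptor alpha chain, and Ear6, an eosinophil ribonuclease, with log2 fold changes of -0.92 and -0.58 (-0.67 and -0.52 corrected). The call of Ear6 (adjusted p = 0.0453) was lost in 13 of 21 alternatives. These were the correction (adjusted p = 0.0669), RLE factors (0.0547), the replicate block (0.0721) and leaving out any 1 of the 6 libraries (0.0559 to 0.206). Leaving out untreated control library 3 or any untreated homozygous library did the same (0.0669 to 0.0799). Stem and progenitor genes went in no common direction, with 2 of 12 rising and 2 falling (0 and 3 corrected), or 1 rising without control library 2 or 3 or homozygous library 1, 2 or 3; Sox4, also a pre-B factor, measured 41.6 to 56.0 CPM against 9.86 to 12.5 CPM, and Myb 102 to 126 CPM against 49.2 to 53.8 CPM.

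Interferons signal through STAT proteins: type I interferons through a complex with IRF9 that binds the interferon-stimulated response element (ISRE), and interferon-gamma through STAT dimers. The 2 responses parted under SCFA. Of 33 type I response genes 12 fell and 2 rose (median -0.44; 14 fell, 3 rose, median -0.39, corrected), and 7 fell without control library 2 or homozygous library 3. Of 25 interferon-gamma response genes 11 rose and 1 fell (median 0.74; 12 rose, 2 fell, median 0.79, corrected). Many promoters of both lists hold the ISRE letters GAAANNGAAA on either strand within 250 bases before and 50 bases after a RefSeq start: 15 of 24 type I genes with a promoter in the table (62.5%) and 12 of 15 interferon-gamma genes (80%), against 4.06% of tested genes. The STAT letters TTCNNNGAA occurred in 7 of the 15 interferon-gamma promoters (46.7%) and in 8.57% of tested genes. They were not counted for the type I list, so the 2 lists cannot be compared in this. For the B lineage the EBF letters TCCCNNGGGA were searched in the same way and occurred in 1 of 10 promoters of its transcription factors and 0 of 9 of the pro-B and pre-B list, against 1.25% of tested genes. They also occurred in 1 of 11 of the receptor and signalling list (Cd22, which fell) and 0 of 8 of the mature surface list. A match, or none, describes letters in this window only. Promoters of Rsad2 and Isg15, which fell, of Gbp2 and Igtp, which rose, and of Socs3, a STAT3 target that rose, follow from RefSeq GRCm38.p6, 180 bases before to 20 after the start, 5′ to 3′ on the gene's strand. Capitals mark the ISRE matches in Rsad2 (chr12:26456433-26456632, minus strand), Isg15 (chr4:156200799-156200998, minus strand; 3 overlapping matches) and Gbp2 (chr3:142620483-142620682, plus strand), a STAT and an ISRE match in Igtp (chr11:58199376-58199575, plus strand), and a STAT match in Socs3 (chr11:117969347-117969546, minus strand).
Rsad2: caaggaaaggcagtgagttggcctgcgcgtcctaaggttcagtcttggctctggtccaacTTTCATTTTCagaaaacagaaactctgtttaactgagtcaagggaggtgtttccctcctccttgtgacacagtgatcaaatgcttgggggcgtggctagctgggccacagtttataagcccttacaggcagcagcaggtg
Isg15: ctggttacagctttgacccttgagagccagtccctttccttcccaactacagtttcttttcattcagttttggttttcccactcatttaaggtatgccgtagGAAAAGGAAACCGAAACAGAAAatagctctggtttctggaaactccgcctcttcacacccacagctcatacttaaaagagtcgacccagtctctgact
Gbp2: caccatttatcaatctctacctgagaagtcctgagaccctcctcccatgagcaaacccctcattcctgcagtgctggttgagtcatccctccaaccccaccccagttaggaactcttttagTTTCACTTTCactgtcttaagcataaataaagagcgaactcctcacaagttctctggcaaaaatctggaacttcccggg
Igtp: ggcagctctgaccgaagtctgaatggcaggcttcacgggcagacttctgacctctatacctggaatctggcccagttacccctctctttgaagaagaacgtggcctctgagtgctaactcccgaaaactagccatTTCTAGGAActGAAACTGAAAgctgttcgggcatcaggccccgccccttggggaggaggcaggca
Socs3: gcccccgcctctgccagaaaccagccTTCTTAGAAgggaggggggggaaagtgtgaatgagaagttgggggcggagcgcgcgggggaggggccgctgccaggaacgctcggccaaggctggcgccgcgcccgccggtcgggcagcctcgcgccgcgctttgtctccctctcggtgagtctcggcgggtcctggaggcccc

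Rsad2, the antiviral protein viperin, measured 301, 343 and 395 CPM in control libraries and 88.6, 60.6 and 68.5 CPM in homozygous ones (log2 fold change -2.26 ± 0.16, SE; adjusted p = 1.6e-07; -2.05 corrected). Isg15, a ubiquitin-like modifier, measured 30.8, 31.1 and 28.2 CPM against 11.3, 14.7 and 12.7 CPM, and Isg20, an exonuclease, 107, 106 and 101 CPM against 33.0, 45.4 and 35.0 CPM. Usp18, which removes ISG15 and dampens the pathway, measured 27.0, 28.7 and 25.9 CPM against 14.2, 15.5 and 16.4 CPM. The falls of Ifit2 and Ifit3, -0.64 and -0.56, were less firm: Ifit2 lost its call with the correction (adjusted p = 0.13), and Ifit3 lost it without control library 2 or 3, homozygous library 1 or 3 or untreated homozygous library 3 (adjusted p = 0.0512 to 0.1) and with only the 6 libraries (0.0713). Zbp1, a nucleic acid sensor, rose, with 17.7 to 20.8 CPM in control and 33.9 to 36.5 CPM in homozygous libraries. Ifi27l2a, an interferon-induced mitochondrial protein, fell from 114, 106 and 103 CPM to 35.5, 49.5 and 41.0 CPM under SCFA and had a log2 fold change of 1.52 without (interaction adjusted p = 2.6e-06; 4e-07 corrected).

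On the interferon-gamma side, Gbp2, a guanylate-binding protein, measured 27.2, 27.4 and 40.9 CPM against 161, 132 and 147 CPM (log2 fold change 2.21 ± 0.20, SE; adjusted p = 3.1e-06; 2.33 corrected). Igtp, a GTPase of the same response, measured 65.0, 61.8 and 60.2 CPM against 107, 100 and 119 CPM. Gbp3 had a log2 fold change of 1.31 and Iigp1 of 2.68 (1.45 and 2.91 corrected). Irf1, the factor at the head of the response, measured 65.4, 72.2 and 60.7 CPM against 105, 144 and 132 CPM, and Cd274, which encodes PD-L1, 37.1, 31.2 and 44.5 CPM against 59.3, 60.6 and 58.0 CPM. Gbp9 went the other way, from 69.2, 76.2 and 68.2 CPM to 43.8, 40.0 and 34.6 CPM. Reads of Gbp and Ifit genes can be shared among close copies.

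Without SCFA both lists were higher in homozygous libraries: 26 of the 33 type I genes rose and 1 fell (median 1.22; 29 and 1 corrected), and 17 of the 25 interferon-gamma genes rose and none fell (median 1.68; 16 and none corrected). The interaction was lower under SCFA for 28 type I genes (29 corrected) and higher for 0. For the interferon-gamma list it was lower for 14 and higher for 1 (8 and none corrected). For Oasl2, an antiviral gene, the log2 fold change was -0.03 under SCFA, with 131 to 140 CPM against 131 to 141 CPM, and 2.13 without (interaction adjusted p = 2.6e-06).

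**Figure D4:**
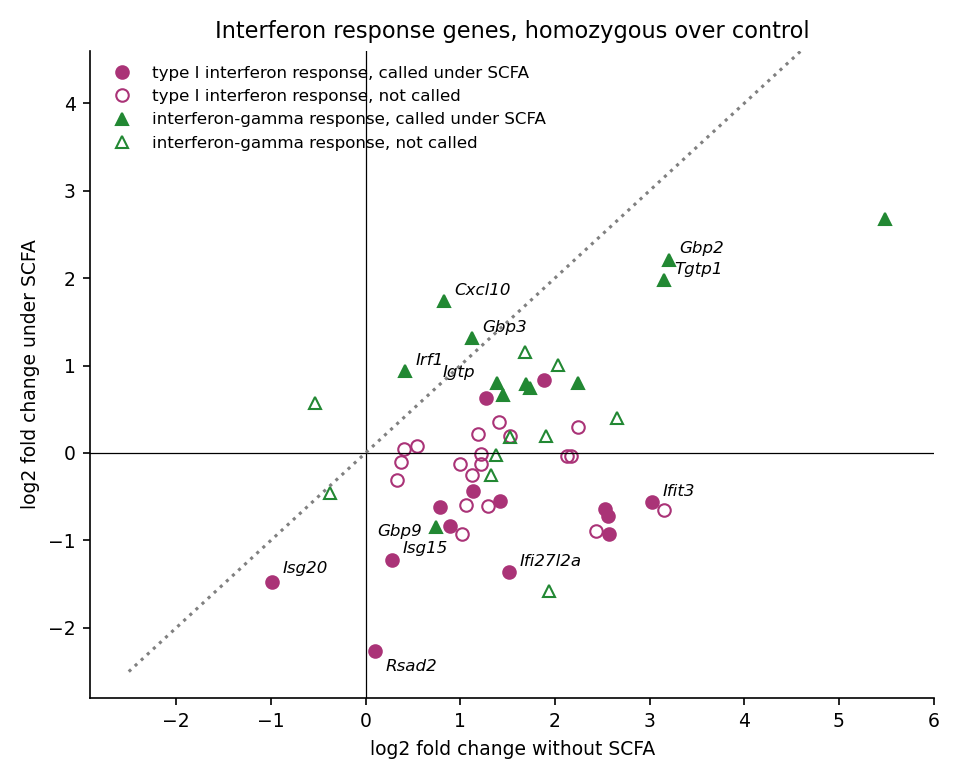
Interferon response genes that averaged 1 CPM or more in either SCFA group. Each point is a gene, with its log2 fold change, homozygous over control, without SCFA on the x axis and under SCFA on the y axis; filled points were called under SCFA, and the dotted line marks equal values. Of the 33 circles (type I response) 32 lie right of 0 on the x axis and 25 below 0 on the y axis, and of the 22 triangles (interferon-gamma response) 17 lie above 0 on the y axis.

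Antigen presentation genes rose with the interferon-gamma list. Of 11 MHC class II genes 6 rose and 1 fell (median 0.90; 6 and 2, median 0.69, corrected). H2-Ab1, a class II beta chain, measured 432, 383 and 337 CPM against 762, 1031 and 991 CPM (log2 fold change 1.27; 0.78 corrected), and H2-DMa and H2-DMb1, which load peptides, had log2 fold changes of 1.33 and 1.23 (0.96 and 0.94 corrected). H2-Ob, the B cell form of the inhibitor of loading, fell from 93.4, 94.8 and 103 CPM to 20.99, 20.4 and 26.7 CPM. Of 19 class I and immunoproteasome genes 11 rose and 1 fell (median 0.50; 8 and 1, median 0.30, corrected). H2-D1 measured 2144, 2008 and 1776 CPM against 3237, 4414 and 4192 CPM. Psmb8 and Psmb9, immunoproteasome subunits, had log2 fold changes of 0.88 and 0.90 (0.66 and 0.58 corrected), while B2m, the shared light chain, had -0.04 and did not pass. Without SCFA no class II gene rose and 4 fell (1 and 2 corrected), while 12 of the 19 class I and immunoproteasome genes rose and none fell (16 and none corrected).

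Stat3 itself measured 248, 247 and 224 CPM against 319, 374 and 398 CPM (log2 fold change 0.60 ± 0.15, SE; adjusted p = 0.0157; 0.38 corrected), and the call was lost without control library 3 or homozygous library 3 (adjusted p = 0.0657 and 0.0606). The table does not separate reads of the transgene from those of the endogenous gene (chr11:100885098-100939540). Without SCFA the log2 fold change was -0.28 and did not pass. Of 13 STAT3 target genes 8 rose and 1 fell under SCFA (median 0.71; 6 and 2, median 0.23, corrected), and 1 rose and 3 fell without (2 and 2 corrected). Socs3, the feedback inhibitor of STAT3 signalling, measured 82.8, 71.0 and 58.2 CPM against 118, 163 and 171 CPM (log2 fold change 1.09; 0.55 corrected). Osm, an IL-6 family cytokine, measured 49.95, 40.5 and 38.7 CPM against 79.0, 98.4 and 95.8 CPM, and Cebpd, a factor of the acute phase response, had a log2 fold change of 0.95 (0.79 corrected). Bcl3 lost its call with the correction (adjusted p = 0.629) and without control or homozygous library 2 or 3 (adjusted p = 0.0712 to 0.113) and with the replicate block (0.069). Myc, Mcl1 and Pim1 did not pass. Of the 10 listed targets with a promoter in the table, 1, Socs3, held the STAT letters printed above.

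Of 12 IL-6 family receptor and JAK-STAT genes 4 rose and none fell (6 rose and 1 fell, corrected), or 2 without control library 3 or homozygous library 3. Il6ra, the IL-6 receptor, measured 51.8, 52.3 and 55.5 CPM against 64.7, 92.7 and 92.1 CPM. Acute phase, complement and serpin genes rose in 9 of 12 cases with no fall (median 0.82; 8 rose, median 0.74, corrected). Saa3, serum amyloid A3, measured 387, 378 and 357 CPM against 624, 735 and 618 CPM, and C4b, complement C4, 2.28, 3.24 and 1.78 CPM against 12.3, 10.5 and 7.75 CPM. Immediate early genes rose in 8 of 18 cases and fell in 1 (7 and 3 corrected; none fell without control or homozygous library 2), where without SCFA 14 fell and 1 rose (3 and none corrected). Fos, a subunit of AP-1, measured 439, 404 and 417 CPM against 665, 667 and 684 CPM, and had log2 fold changes of 0.68 with SCFA and -0.50 without (0.51 and -0.31 corrected; interaction adjusted p = 0.0003 and 0.00466 corrected). Egr1 lost its call with the correction (adjusted p = 0.494).

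Among inflammatory cytokines and chemokines 4 of 16 rose and 3 fell (6 and 2 corrected). Ccl2, which draws monocytes, fell from 41.3, 34.2 and 35.3 CPM to 19.9, 14.0 and 14.2 CPM, and Ccl22, which dendritic cells make, from 1.86 to 3.57 CPM to 0.268 to 0.627 CPM. Cxcl10, which interferons induce, rose from 1.19, 1.27 and 1.07 CPM to 4.51, 3.48 and 3.88 CPM.

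Among glycolytic enzymes and glucose transporters, 13 of 20 rose and none fell, with or without the correction (median 0.78; 0.42 corrected). Gapdh measured 268, 238 and 221 CPM against 372, 522 and 499 CPM (log2 fold change 0.94; 0.71 corrected). Slc2a3, a glucose transporter, measured 379, 379 and 358 CPM against 541, 564 and 586 CPM (0.60; 0.69 corrected), and Aldoa and Pkm, an aldolase and a pyruvate kinase, each had 0.94 (0.47 and 0.44 corrected). Pgk1 did not pass, at 61.8 to 74.8 CPM against 67.5 to 72.2 CPM. Without SCFA 1 of the 20 rose (3 corrected). Of 23 nuclear genes of oxidative phosphorylation 4 rose and 1 fell (2 and 2 corrected), and the 4 became 1 without control library 3 or homozygous library 2 or 3 and 2 without control library 2. Of 12 mitochondrially encoded genes 1 fell (2 corrected), while 11 had log2 fold changes below 0 (median -0.55; -0.32 corrected). The gene called was mt-Cytb, which measured 3571, 4295 and 4884 CPM against 2751, 2374 and 2521 CPM, and its call was lost without control library 3 or homozygous library 2 or 3 (adjusted p = 0.076, 0.0681 and 0.0571).

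Genes through which SCFA act were measured next. Hcar2, the receptor of butyrate and niacin, rose from 102, 106 and 97.3 CPM to 141, 154 and 164 CPM (log2 fold change 0.59; 0.50 corrected). Ffar2, the receptor of acetate and propionate, measured 9.04, 7.65 and 5.16 CPM against 9.98, 12.8 and 12.7 CPM, and its call was lost with the correction (adjusted p = 0.147) and without control library 2 or 3 or homozygous library 2 or 3 (adjusted p = 0.0901 to 0.17), untreated control library 3 or untreated homozygous library 1 (adjusted p = 0.0537 and 0.0559), with the replicate block (0.107) and without the filter on low counts (0.0672). Slc16a3, a lactate and pyruvate exporter, had a log2 fold change of 1.05 (0.59 corrected). Acss1, which activates acetate in mitochondria, fell from 58.3, 53.1 and 64.5 CPM to 21.3, 19.3 and 20.8 CPM. Of the 11 histone deacetylases 1 rose and 2 fell (0 and 4 corrected), and none rose without control or homozygous library 2 or 3, while 2 rose without control or homozygous library 1. Hdac9, a class IIa enzyme, measured 32.0, 28.1 and 30.4 CPM against 3.17, 2.86 and 2.34 CPM, and Hdac8, a class I enzyme, 22.2 to 25.4 CPM against 6.90 to 9.05 CPM. Cd36, a fatty acid transporter and scavenger receptor, fell from 117, 102 and 146 CPM to 19.2, 23.4 and 22.9 CPM; of 19 fatty acid oxidation and PPAR genes 1 rose and 3 fell (1 and 2 corrected), or 0 and 1 without control library 3 or homozygous library 2 or 3.

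The study's title concerns osteoclasts, cells that resorb bone and arise from monocyte precursors on M-CSF and RANKL. Of the receptors, Csf1r rose (above), while Tnfrsf11a, which encodes RANK, did not pass, with 27.9, 27.8 and 32.5 CPM against 35.9, 33.6 and 30.3 CPM. Trem2, a costimulatory receptor, measured 17.8, 12.4 and 17.9 CPM against 22.7, 32.5 and 29.0 CPM (log2 fold change 0.81; 0.68 corrected; adjusted p = 0.0502 without homozygous library 2), and Traf6, the adaptor below RANK, fell from 104, 119 and 107 CPM to 73.6, 66.2 and 70.1 CPM. Among 13 transcription factors and repressors 3 rose, with or without the correction; Fos rose (above), Spi1, the ETS factor PU.1, had 0.88 (0.34 corrected), and Nfatc1, the factor that commits cells to the fate, did not pass, at 124 to 136 CPM against 128 to 145 CPM. Of 10 fusion and resorption genes 4 rose (3 rose and 1 fell, corrected). Tcirg1, a proton pump subunit, had a log2 fold change of 0.92 (0.37 corrected). The 2 genes closest to resorbing cells were low and did not pass: Ctsk, cathepsin K, measured 2.47, 1.81 and 2.55 CPM against 0.751, 0.204 and 1.25 CPM, and Acp5, which encodes TRAP, 20.98, 18.2 and 15.7 CPM against 9.82, 13.8 and 14.9 CPM (-0.51; -0.93, called, corrected).

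Of 15 p53 target genes 5 rose and 1 fell (4 and 1 corrected), or 3 rose without control library 2 or 3 or homozygous library 2 or 3. Cdkn1a, the cell cycle inhibitor p21, measured 25.1, 24.9 and 23.3 CPM against 53.03, 76.3 and 72.6 CPM (log2 fold change 1.46 ± 0.18, SE; 1.12 corrected). Eda2r, a TNF receptor family member, measured 0, 2.11 and 0.0593 CPM against 16.1, 14.6 and 13.3 CPM (4.29; 8.80 without control library 2). Notch pathway genes fell in 4 of 12 cases and rose in 2 (4 and 0 corrected; 0 rose without control library 3 or homozygous library 2 or 3): Dtx1, a Notch target of B and T cells, measured 15.4, 14.3 and 13.4 CPM against 1.503, 2.20 and 1.37 CPM, and Hes1 5.28, 5.39 and 4.39 CPM against 0.590, 1.02 and 0.513 CPM. Of 15 S phase genes 1 fell (1 corrected), and none without control or homozygous library 2 or 3; without homozygous library 1, 2 fell and 1 rose. Of 16 G2 and M phase genes 3 fell and 1 rose (2 and 0 corrected), and none fell or rose without control or homozygous library 2 or 3; without control library 1, 1 fell and none rose. Of 17 unfolded protein and amino acid stress genes 4 rose and 2 fell (2 and 3 corrected), or 2 rose without control library 3 or homozygous library 2; Ppp1r15a, which restarts translation after stress, fell from 294, 269 and 236 CPM to 122, 144 and 144 CPM.

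Ribosomal genes and the neighbours of the transgene were counted last. Of 86 cytosolic ribosomal protein genes 22 rose and 4 fell (13 and 4 corrected); 6 rose without control library 3 or homozygous library 2, 9 without control library 2 and 14 without homozygous library 3, and none fell without any of these 4. Of 72 tested genes within 5 Mb of Rosa26, the site of the transgene on chromosome 6, 5 rose and 2 fell (9 and 1 corrected); 1 rose without control library 3 or homozygous library 2 or 3, 2 without control library 2, and 8 without homozygous library 1. Over all genes tested, 8.89% rose and 8.47% fell (6.86% and 8.46% corrected).

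**Figure D5:**
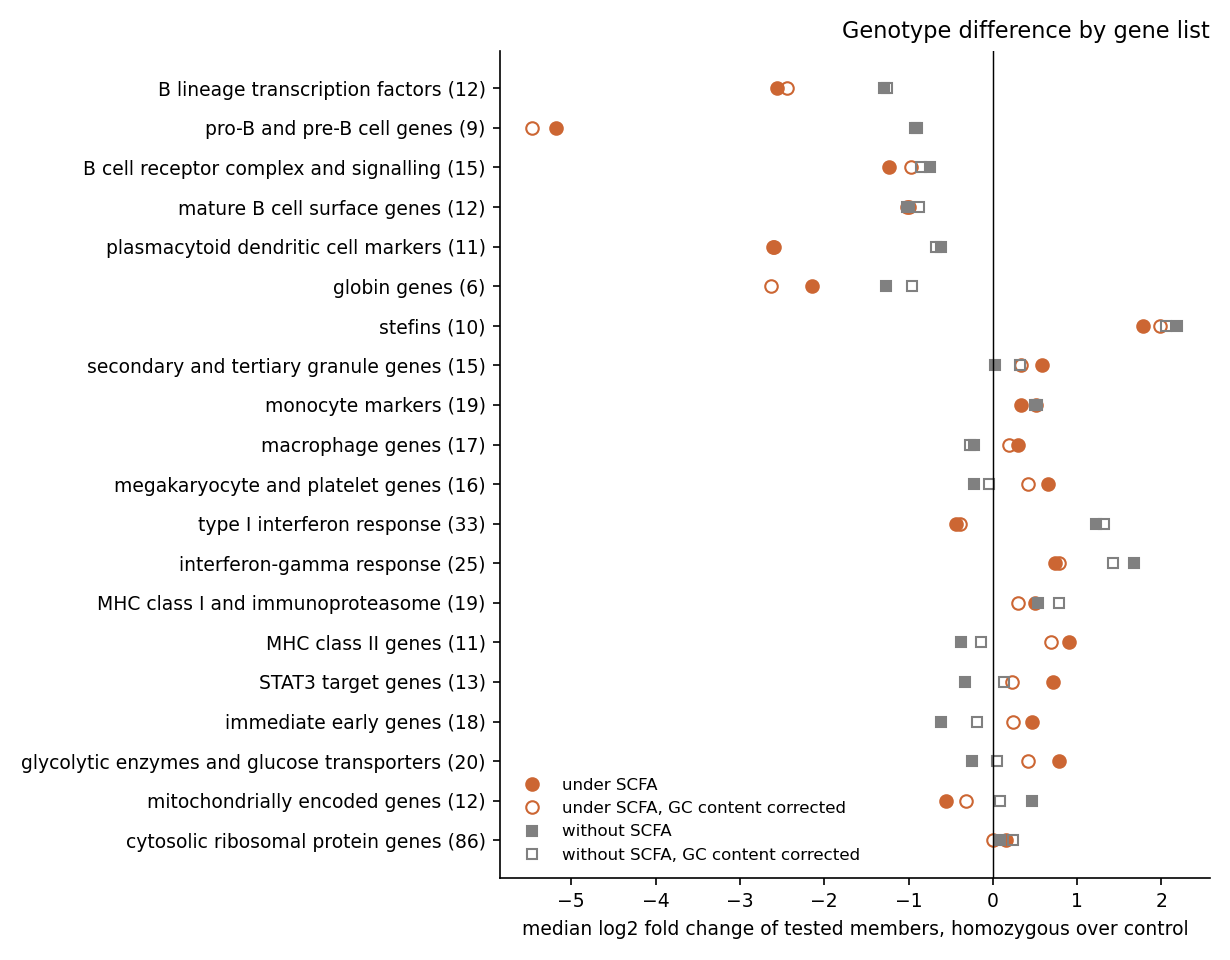
Median log2 fold change, homozygous over control, of the tested members of 20 gene lists (number tested in parentheses). Circles are the comparison under SCFA and squares that without SCFA; filled symbols are uncorrected and open symbols corrected for GC content. B lineage, plasmacytoid dendritic cell and globin lists lie furthest left under SCFA and stefins furthest right, and the type I interferon list lies left of 0 under SCFA and right of it without.

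Across all genes, the comparison without SCFA was set beside that under SCFA; the 2 share no libraries. Uncorrected, 110 genes rose and 311 fell in both, 276 rose under SCFA and fell without, and 85 fell under SCFA and rose without. Corrected, 201 rose and 382 fell in both, 58 rose under SCFA and fell without, and 49 fell under SCFA and rose without. The shared rises made up 7.89% of the rises under SCFA and 10.5% of those without (18.7% and 25.8% corrected), and the shared falls 23.4% and 24.4% of the falls (28.8% and 49.9% corrected). Of all genes tested, 6.69% rose and 8.13% fell without SCFA (4.96% and 4.89% corrected). Under SCFA 8.89% rose and 8.47% fell (6.86% and 8.46% corrected). Uncorrected, the shared rises thus lay near the shares of all genes that rose.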

How the data were processed

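Poly(A) RNA libraries of marrow cells were measured in 4 groups of 3. The deposited values are raw counts per gene symbol; per the submitters' processing notes, STAR, featureCounts and mm10 were used, with versions and strand setting not given in the sources used here. Library totals were 16954355 to 20748995 counts. Counts were fitted with edgeR 4.0.16 (R 4.3.3; TMM factors, filterByExpr by group, quasi-likelihood F test, 4 group means over all 12 libraries), and p-values were adjusted by Benjamini-Hochberg over 15674 genes. CPM used TMM library sizes. The script was tested on simulated data.

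GC content came from the longest GENCODE M21 transcript of each gene (98.16% of tested genes), and the correction was an offset per gene and library from a lowess curve (span 0.3). Alternatives used DESeq2 1.42.0, limma 3.58.1, RLE factors, no filter, 6 libraries, a replicate block and leaving out each library.

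The members and gene lists were chosen with earlier results of these data known. Genes were named by rule: the 12 largest rises and falls with at least 5 CPM and no overlap between groups, up to 4 called members of each list by p (2 by level where none was called), the 10 smallest interaction p, and Stat3, Socs3, Cd4, Tnfrsf11a, Csf1r and Ffar2. Other names were chosen after their values were seen: Pax5, Tcf4, Ikzf1, Dntt, Il7r, Arpp21, Syk, Lyn, Ighg2b, Igha, Igkc, Jchain, Cd3d, Cd3e, Trac, Kit, Cd34, S100a8, Bst2, Prg2, Epx, Rhag, Aqp1, Pf4, Oasl2, Usp18, Zbp1, Irf1, Cxcl10, Cd274, B2m, Bcl3, Pim1, Myc, Mcl1, Nfatc1, Acp5, Ctsk, C4b, Pgk1, Slc2a3, Il5ra and Ear6. Some genes that the rule names are left out for brevity.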

Additional observations from a re-analysis of the deposited data

Results flagged for a closer look

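Of the 142 named genes called under SCFA, 108 had a genotype difference that differed from that without SCFA (interaction adjusted p under 0.05, edgeR quasi-likelihood F test). Of the 108, 82 passed also after the correction for GC content. Over all genes tested the interaction passed in 25.1%, or 9.91% corrected. Some genes were named for a small interaction p and most others for their change under SCFA, so counts among named genes do not describe all genes. In 73 named genes the interaction passed in all 21 fits that give one, and these are listed here. Each value is the log2 fold change, homozygous over control, under SCFA minus that without SCFA, uncorrected, with 3 libraries in each of the 4 groups. Treatment and label date cannot be told apart in this difference. Among B lineage factors the difference was -3.01 for Ebf1, -2.79 for Bach2, -2.73 for Pou2af1, -2.08 for Spib and -3.03 for Pax5. For pro-B and pre-B cell genes the difference was -7.53 for Igll1, -3.63 for Vpreb3, -2.41 for Dntt and -2.28 for Il7r. Among receptor and mature B cell genes the difference was -2.30 for Cd72, -0.98 for Cd79a, -1.33 for Cd79b, -2.41 for Blnk, -1.25 for Tnfrsf13c, -2.12 for Ms4a1 and -1.85 for Irf4. For immunoglobulin constant regions the difference was -1.09 for Ighm, -2.78 for Iglc1, -0.90 for Igkc and 1.80 for Igha. Among genes of T cells that other lymphoid cells also express the difference was -4.08 for Il2ra, -1.22 for Cd2 and -1.52 for Cd8a. For plasmacytoid dendritic cell genes the difference was -1.21 for Ly6d, -2.59 for Ccr9 and -2.21 for Siglech. Among other genes with large falls the difference was -5.10 for Akap12, -5.11 for Cecr2, -1.98 for Hdac9 and -1.53 for Cd36. For red cell genes the difference was -0.94 for Alas2, -1.84 for Hbb-bs and 2.96 for Aqp1. Among platelet genes the difference was 1.80 for Vwf and 2.12 for Itga2b. For neutrophil, monocyte and macrophage genes the difference was 2.15 for Asprv1, 1.46 for Hp, -0.88 for Il1r2, 1.21 for Csf1r, 2.52 for Apoe, 1.67 for C1qb, 1.54 for Trem2 and -1.43 for Ccl2. Among MHC class II genes the difference was -1.12 for H2-Ob, 1.64 for H2-Ab1 and 1.43 for H2-DMa. For interferon response genes the difference was -2.81 for Iigp1, -2.36 for Rsad2, -2.88 for Ifi27l2a, -1.50 for Isg15, -1.59 for Gbp9, -3.17 for Ifit2, -3.59 for Ifit3, -1.72 for Usp18 and -1.06 for Zbp1. Among Stat3, its targets and Fos the difference was 0.88 for Stat3, 1.54 for Osm, 1.24 for Cebpd, 1.76 for Socs3 and 1.18 for Fos. For metabolic and mitochondrial genes the difference was 1.43 for Slc16a3, 1.13 for Gapdh, 1.44 for Aldoa, 0.79 for Slc2a3 and -1.09 for mt-Cytb. Genes with 0 counts in every homozygous library under SCFA had fitted differences of -11.82 for Rag1, -11.89 for Rag2, -10.83 for Gfra1, -8.79 for Col5a3, -9.80 for Tnfrsf19, -9.81 for Lgr5, -9.14 for Sertad4 and -8.18 for Gpr12; these sizes depend on the small count that the fit adds and are no bounds. In 29 of these 73 genes the uncorrected log2 fold changes under and without SCFA had opposite signs. Corrected, the signs were the same in part of the 29. Among these, the corrected log2 fold change under SCFA and difference were 0.67 and 0.58 for Hp and 0.63 and 0.51 for Csf1r. They were 0.78 and 0.65 for H2-Ab1, 0.96 and 0.67 for H2-DMa and 0.59 and 0.49 for Slc16a3. For Gapdh they were 0.71 and 0.66, and for mt-Cytb -0.48 and -0.44. The signs stayed opposite for Socs3, at 0.55 and 0.67, and Vwf, at 0.68 and 0.90. Of the 29, 13 were called in both comparisons, uncorrected. These were, under SCFA first, Apoe with 1.34 and -1.18, C1qb with 0.82 and -0.85, Vwf with 1.12 and -0.68, Itga2b with 1.14 and -0.98, Ifi27l2a with -1.36 and 1.52, Gbp9 with -0.85 and 0.74, Trem2 with 0.81 and -0.73, Fos with 0.68 and -0.50, Socs3 with 1.09 and -0.67, Ifit2 with -0.64 and 2.53, Ifit3 with -0.56 and 3.03, Aqp1 with 1.85 and -1.10 and Usp18 with -0.83 and 0.89.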

How the results depend on the processing

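Of 142 named genes called under SCFA, 126 stayed called with the same sign in each of 21 alternatives in which they were tested. The other 16 lost the call in at least 1: 10 with a correction for GC content, 9 without a library and 3 with the replicate block. Most were named for a large change or small p in these data, so this share does not describe all called genes. Among all called genes, 53.3% of the rises and 78.5% of the falls stayed called with the correction for GC content alone. The 2 corrections, for GC content alone and for GC content and transcript length, were chosen after seeing the data; the other alternatives were planned. The 256 genes that rose at least 2-fold became 121 with the correction for GC content and 124 with that for GC content and length, and the 3938 interaction calls became 1553 and 1681. limma-voom with quality weights called 4762 genes, of which 2457 rose and 2305 fell, 450 of the rises at least 2-fold. Leaving out 1 library at a time gave 1431 to 3282 called genes, 656 to 1926 rises, 775 to 1546 falls, 158 to 401 rises and 572 to 764 falls of at least 2-fold, and 2455 to 5379 interactions. The lowest of these came without control SCFA library 3 or homozygous SCFA library 2. Each of these fits leaves out 1 library, and some called more genes than the 2722 of all libraries. Without untreated control library 1, 3282 were called, and without homozygous SCFA library 1, 2805. In the labels the 2 genotypes share replicate numbers. The deviations of same-numbered libraries had r = -0.0312, 0.0182 and -0.0099, and those of other pairs -0.0254 to 0.0308. With 3 libraries in a group these values cannot decide whether libraries were paired. The numbers are used here as names only. With the replicate block, 1728 genes were called and 790 rose.

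The sign changed in genes that did not pass. With the correction for GC content, and for GC content and length, the log2 fold change was -0.31 and -0.29 for Syk (called), 0.06 and 0.05 for Lyn, 0.17 and 0.16 for Cd34, -0.34 and -0.35 for Bst2, -0.29 and -0.31 for Epx, 0.21 and 0.19 for B2m, -0.23 and -0.25 for Pim1, -0.21 and -0.19 for Nfatc1, and 0.00 and -0.04 for Pgk1. It was 0.00 for Mcl1 with the first of them, without the filter on low counts and with only the 6 libraries, and 0.01 for Oasl2 in the last 2. It was 0.00 for Syk with scaling factors from genes outside the B lineage. Leaving out 1 library at a time gave -1.06 to 0.93 for Arpp21, -0.02 to 0.06 for Syk, -0.04 to 0.16 for S100a8, -0.07 to 0.16 for Bst2, -0.05 to 0.02 for Oasl2, -0.14 to 0.06 for B2m, -0.14 to 0.03 for Mcl1 and -0.05 to 0.09 for Pgk1, with both signs for each. The causes were not tested. Depth limits genes at 0 counts: 3 counts over a group correspond to 0.0515 CPM in the control and 0.0538 CPM in the homozygous libraries under SCFA.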
